A study of Homo sapiens with 24 samples.

Results

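CXCR4, CXCL12 and ACKR3 of the chemokine pathway and RELN, VLDLR, LRP8 and DAB1 of the reelin pathway were followed in D425 cells after a hairpin against OTX2 was induced. The CXCR4 signal of probe set 211919_s_at averaged 234.6 ± 47.4 at 96 h against 23.5 ± 3.3 at 0 h (SD, n = 3 each), while RELN fell to 20.3% and VLDLR to 51.0% of their 0 h means. The members were all probe sets annotated to 1 of these 7 genes alone, 7 of the 19775 genes named by a probe set with 1 symbol, which gave 15 of the 54675 probe sets on the array. Of these, 10 probe sets of 6 genes passed the filter on low values, a signal above the array's own median in at least 3 of the 24 arrays. The 5 that did not pass were the 3 probe sets of ACKR3 and 1 each of CXCL12 and DAB1, and they are described without a test. A further probe set (226020_s_at) is annotated to both OMA1 and DAB1, so it was not counted as a member.

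D425 is an established human medulloblastoma cell line, and OTX2 is a homeobox transcription factor of the developing forebrain, midbrain and eye. The 18 arrays labelled shOTX2 come from cells with a doxycycline-inducible short hairpin RNA against OTX2, in 3 independent, numbered courses with 1 array each at 0, 8, 16, 24, 48 and 96 h. The 6 arrays labelled control form 1 course at the same times. The labels say that all cells were plated a day before doxycycline was added. They do not say what the control cells carry or whether the lines are clones. The control has no replicate course, so its spread is taken from the shOTX2 arrays.

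The unit is the MAS5 signal, a linear intensity on which the array medians lay between 16.3 and 20.6. Tests used limma on log2(signal + 16) with Benjamini-Hochberg adjustment over 33803 probe sets. A probe set is called when its adjusted p is under 0.05, and changes on this scale understate those of dim probe sets. The p-values measure the spread between courses of 1 line. As a check of the cell type, OTX2 and MYC, which are highly expressed in this line, read at least 3596.1 (OTX2, 242128_at) and 2760.6 (MYC, 202431_s_at) in every array.

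The probe sets of the targeted gene differed in sign at 96 h, and neither passed the test without the block. OTX2 averaged 4188 ± 302 at 96 h against 4659 ± 217 at 0 h in the shOTX2 courses on its brighter probe set (242128_at, SD, n = 3 each), a log2 change of -0.15 (limma adjusted p = 0.19, or 0.0379 with the course as a block). Its 96 h signals, 3841.5, 4398.3 and 4324.3, were lower than the 0 h signals of 4417.4, 4839.4 and 4719.5 in every course, without overlap. On the other (231731_at) it averaged 3295 ± 275 against 3027 ± 155, a change of 0.12 (limma adjusted p = 0.377), higher in 2 of 3 courses. At 8 h the signal was lower in 3 of 3 courses on both, at 88.3% and 80.5% of the 0 h means, and neither was called (-0.18 and -0.31, limma adjusted p = 1 each). The sources used here do not place the hairpin or these probes on OTX2 transcripts, so the arrays are called by their labels throughout. The ratio of 3' to 5' actin control probe sets, which reflects RNA integrity and labelling, was 1.311 to 1.51 in shOTX2 course 1, 1.818 to 2.362 in course 2, 1.866 to 2.018 in course 3 and 1.301 to 1.549 in the control course. Values of course 1 alone are therefore given beside the comparisons with the control.

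CXCR4 is a G protein-coupled receptor that cells use to move up a gradient of the chemokine CXCL12. In the developing cerebellum it keeps granule neuron precursors under the CXCL12-secreting meninges until they mature. ACKR3, formerly CXCR7, binds the same chemokine and clears it without coupling to G proteins. Reelin, the secreted glycoprotein encoded by RELN, positions migrating neurons. It binds the lipoprotein receptors VLDLR and LRP8, whose clustering leads SRC-family kinases to phosphorylate the adaptor DAB1 inside the cell.

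The promoter sequences of the 3 members whose level moved most are shown first, as the regions just before the transcription starts. They are the 250 bases upstream of the first RefSeq start in GRCh38.p14, 5′ to 3′ on the gene's strand, for CXCR4 at chr2:136118150-136118399 (minus strand), RELN at chr7:103989659-103989908 (minus strand) and VLDLR at chr9:2621537-2621786 (plus strand). Capitals mark the GC box GGGCGG on either strand and, in CXCR4, a match to the motif of the factor NRF1.
CXCR4: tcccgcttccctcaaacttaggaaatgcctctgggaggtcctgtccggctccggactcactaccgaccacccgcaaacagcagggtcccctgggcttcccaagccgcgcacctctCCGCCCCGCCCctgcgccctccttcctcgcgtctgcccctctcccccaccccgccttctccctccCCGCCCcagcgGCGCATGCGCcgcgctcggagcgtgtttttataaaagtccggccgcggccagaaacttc
RELN: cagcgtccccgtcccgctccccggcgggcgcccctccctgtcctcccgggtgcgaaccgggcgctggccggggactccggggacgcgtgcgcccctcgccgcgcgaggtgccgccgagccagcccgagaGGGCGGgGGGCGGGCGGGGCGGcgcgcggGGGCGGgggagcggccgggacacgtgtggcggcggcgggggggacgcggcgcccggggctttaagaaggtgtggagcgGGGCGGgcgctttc
VLDLR: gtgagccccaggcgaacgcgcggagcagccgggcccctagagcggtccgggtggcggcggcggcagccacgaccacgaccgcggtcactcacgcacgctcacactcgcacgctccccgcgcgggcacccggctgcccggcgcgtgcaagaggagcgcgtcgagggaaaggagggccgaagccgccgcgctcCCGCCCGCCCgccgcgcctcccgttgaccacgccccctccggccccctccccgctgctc
The CXCR4 window holds the GC box at 3 places, of which 2 overlap, and the NRF1 motif at 1 place that begins 59 bases before the start. The RELN window holds the GC box at 6 places, several of them overlapping, and the VLDLR window at 2 overlapping places. RefSeq promoter windows of 300 bases, reaching 50 bases past the start, were found for 6 of the 7 genes, 13 windows in all. The sequence TAATCC, the core that OTX2 and the related factor CRX bind, was in 0 of these 13 windows on either strand, against 6.36% of all 35116 windows. The GC box stood in 44.95% and the NRF1 motif in 5.78% of all windows. A match to these letters describes the sequence and is not evidence of binding.

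CXCR4 rose in all 3 shOTX2 courses and on all 3 of its probe sets. The gene lies at chr2:136114349-136118149 on the minus strand. On its brightest probe set, 217028_at, the signal at 0, 8, 16, 24, 48 and 96 h was 24.5, 13.7, 47.2, 78.2, 173.9 and 382.5 in course 1. In course 2 it was 4.9, 5.2, 30.8, 37.8, 96.9 and 557.4, and in course 3 it was 19.9, 6.2, 23.4, 37.1, 216.5 and 420.3. In the control course it was 3.6, 4.3, 22.6, 10.4, 10.3 and 21.0. Every shOTX2 array at 24, 48 and 96 h lay above every shOTX2 array at 0 h and above the whole control course, and the groups at 16 h and 0 h overlapped.

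The means on this probe set were 453 ± 92 at 96 h and 162 ± 61 at 48 h, against 16.4 ± 10.3 at 0 h (SD, n = 3 each). The log2 change at 96 h was 3.89 (SE 0.30, 95% interval 3.25 to 4.53, limma adjusted p = 1.88e-08), and at 48 h it was 2.45 (adjusted p = 9.24e-06). At 0 h this probe set was near or below the array medians, so no ratio is formed against it.

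The second CXCR4 probe set, 211919_s_at, was little above the array medians of 16.4, 16.3 and 18.0 at 0 h in courses 1, 2 and 3. With no detection calls in the files, a ratio to those signals is not given. At 96 h it read 213.1, 288.9 and 201.7, against 20.8, 27.2 and 22.6 at 0 h in courses 1, 2 and 3. The 96 h and 0 h signals did not overlap. Its log2 change at 96 h was 2.65 (SE 0.19, limma adjusted p = 7.69e-09). In the control course it read 30.4, 30.1, 14.6, 37.3, 28.9 and 24.3 at the 6 times, with no array reaching the lowest 24 h signal of the shOTX2 courses, 40.9.

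The third, 209201_x_at, belongs to a class of probe sets whose probes may also read related transcripts. It read 171.1, 254.6 and 186.7 at 96 h against 3.9, 3.1 and 8.4 at 0 h, and 2.1 to 8.4 in the control course. Its log2 change was 3.37 (SE 0.28, limma adjusted p = 4.58e-08). The 3 probe sets thus moved the same way, and the groups at 96 h and 0 h did not overlap on any of them.

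**Figure D1:**
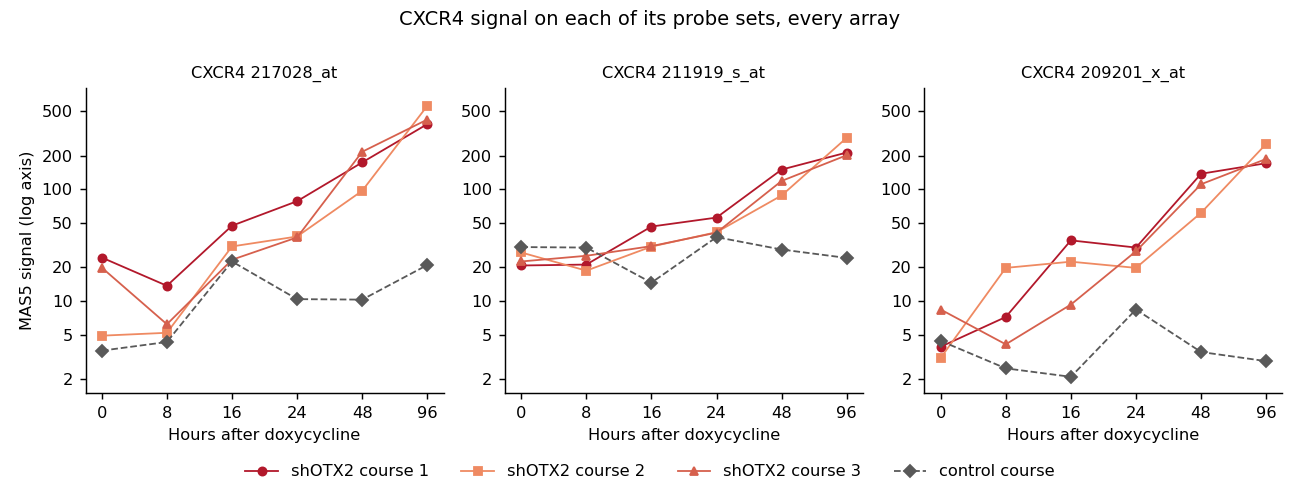
MAS5 signal on a log axis of the 3 CXCR4 probe sets in each of the 24 arrays, at equally spaced positions for the hours after doxycycline; lines join the arrays of a course. The 3 shOTX2 courses climb to 382.5, 557.4 and 420.3 at 96 h on 217028_at, and the control course stays at or below 22.6.

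Without the block, the called steps of the climb fell between 24 and 96 h. The signals at 24 h were already higher than at 0 h in all 3 courses on each probe set. None of the CXCR4 probe sets passed the test at 8, 16 or 24 h against 0 h. At 24 h the log2 changes were 1.05, 0.64 and 0.99 (limma adjusted p = 0.0678, 0.0761 and 0.0661 for 217028_at, 211919_s_at and 209201_x_at), and with the course as a block all 3 passed (adjusted p = 0.00729, 0.0228 and 0.0207). At 48 h against 24 h they rose by 1.40, 1.10 and 1.46 (adjusted p = 0.0047, 0.000805 and 0.00211). At 96 h against 48 h 217028_at rose by 1.44 and 211919_s_at by 0.90 (adjusted p = 0.00629 and 0.00642), while 209201_x_at changed by 0.92 (adjusted p = 0.0566, or 0.021 with the block). The 48 h step is lost on all 3 probe sets without course 3 (adjusted p = 0.0578 to 0.237), where each change was still above 1. The 96 h step on the 2 called probe sets is lost without course 2 (0.99 and 0.58, adjusted p = 0.248 and 0.348) and without course 3 (1.71 and 1.01, adjusted p = 0.0522 and 0.0846). Over all alternative settings that step was called in 11 of 14 on 217028_at and 10 of 12 on 211919_s_at.

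Calls were frequent in these data, and the members are read against that. Against 0 h, the share of all tested probe sets called was 0% for 8 h, 0.580% for 16 h, 3.54% for 24 h, 26.5% for 48 h and 36.8% for 96 h. For 48 h against 24 h 6.19% were called higher and 5.77% lower, and for 96 h against 48 h 7.75% were called. How often the arrays of a time do not overlap those at 0 h was not counted over all probe sets. Wherever a lack of overlap is given, it therefore only describes the values. At 8 h no probe set passed limma's adjusted threshold, 1070 had an unadjusted p under 0.05, and 1 was called with the block. Among the 10 member probe sets, 4 were called higher and 2 lower at 96 h, the same counts at 48 h, and 1 lower at 24 h. Of those called higher, 209201_x_at and, at 48 h, DAB1 passed the filter only with shOTX2 arrays in which they were high. The medians of the arrays over the tested probe sets alone shifted by 0.15 on the log2(signal + 16) scale at 96 h and 0.12 at 48 h against 0 h. The trimmed means of the arrays were 100.011 to 100.014. Centring each array on its median over the tested probe sets lowers every change at 96 h against 0 h given here by 0.15.

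CXCL12, the ligand of CXCR4, stayed dim. Its tested probe set (203666_at) read 11.5, 10.7 and 15.8 at 96 h against 14.1, 15.7 and 17.3 at 0 h in courses 1, 2 and 3, and 10.9 to 24.4 in the control course. All of these lie near the array medians and the groups overlap. The log2 change at 96 h was -0.15, with a 95% interval of -0.50 to 0.21 (limma adjusted p = 0.545), and none of the other times passed the test. The other CXCL12 probe set (209687_at) lay between 0.8 and 11.8 in all 24 arrays and below the array median in each.

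ACKR3, the scavenging receptor for CXCL12, was below the array median on all 3 of its probe sets in all 24 arrays. Its brightest (232746_at) read 11.3, 13.4 and 10.0 at 96 h against 13.5, 5.2 and 12.3 at 0 h in the shOTX2 courses, and 6.3 to 11.3 in the control course. The others, 1559114_a_at and 212977_at, ranged from 0.7 to 11.7 and from 0.3 to 5.3. The deposited values have no detection calls, so these signals are described as low and not as absent.

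Counts among the listed genes of CXCR4 signalling were close to those over all genes. The list includes MIF, which binds the receptor itself, so it is not confined to genes downstream of it. Of 39 genes of CXCR4 signalling (G proteins, arrestins, receptor kinases, RGS proteins, and the kinases and GTPases of migration), 35 were tested, and 8 were higher and 8 lower at 96 h. Over all 13903 tested genes 20.6% were called higher and 21.9% lower, and the list's median log2 change was -0.089 against -1e-04 for all genes. GRK5, a kinase that phosphorylates activated G protein-coupled receptors, averaged 1476 ± 266 at 96 h against 116.5 ± 26.9 at 0 h (SD, n = 3 each), a log2 change of 3.50 (SE 0.22, limma adjusted p = 1.78e-09). Its control signals were 208.1 at 96 h and 198.3 at 0 h.

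Among the rises were RGS genes, whose proteins speed the shut-off of G proteins. RGS16 rose by 1.80, RGS3 by 1.12 and RGS4 by 1.04 (limma adjusted p = 1.1e-05, 1.04e-05 and 0.00841), and RGS3's other probe set had the opposite sign. RGS4 averaged 23.3 at 96 h, near the array medians, and 2.87 at 0 h, below them. The falls included PIK3CB, a PI3-kinase catalytic subunit (-1.15, adjusted p = 8.54e-05), and ELMO1 and VAV3, which activate RAC (-0.92 and -0.85, adjusted p = 0.0125 and 0.000519). MIF, a cytokine that also binds CXCR4, averaged 2865 at 96 h against 4638 at 0 h (-0.69, adjusted p = 3.6e-06). For the late against early difference between the arms, 6 of the 35 were higher and 4 lower, where 9.62% and 10.9% of all genes were. RGS4, ELMO1 and VAV3 were not called in that comparison (limma adjusted p = 0.13, 0.133 and 0.356).

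RELN fell in all 3 shOTX2 courses, and each step after 24 h passed the test. The gene spans chr7:103471789-103989658. Its 1 probe set (205923_at) read 242.1, 190.3, 139.1, 137.6, 98.8 and 45.5 at 0, 8, 16, 24, 48 and 96 h in course 1. In course 2 it read 266.7, 198.2, 149.0, 188.6, 98.5 and 50.5, and in course 3 it read 210.2, 193.1, 216.0, 199.3, 102.4 and 50. The control course read 124.7, 104.5, 110.5, 111.5, 96.7 and 153.5. The shOTX2 arrays at 96 h lay below all other arrays, those at 48 h within the control's range, and those at 0 and 8 h above every control array.

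RELN averaged 48.7 ± 2.8 at 96 h against 240 ± 28 at 0 h (SD, n = 3 each). The log2 change was -1.98 (SE 0.16, 95% interval -2.31 to -1.65, limma adjusted p = 2.19e-08). At 48 h the mean was 99.9 ± 2.2, or 41.7% of that at 0 h (log2 change -1.14, adjusted p = 2.82e-05). The earlier times gave -0.49 at 16 h and -0.43 at 24 h (adjusted p = 0.233 and 0.168), and both passed with the course as a block (0.0464 and 0.0455). At 48 h against 24 h RELN fell by 0.71 and at 96 h against 48 h by 0.84 on the log2 scale (adjusted p = 0.00554 and 0.00276). The first of these steps was lost without course 2 (-0.64, adjusted p = 0.183) or course 3 (-0.63, 0.0945), and the second without course 2 (-0.87, 0.158).

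VLDLR, the receptor for reelin that also binds apolipoprotein E-rich lipoproteins, fell as well. The gene lies at chr9:2621787-2660056 on the plus strand, and its probe set is 209822_s_at. It read 132.0, 103.0 and 114.8 at 96 h and 199.7, 151.1 and 180.8 at 48 h, against 244.2, 208.9 and 232.9 at 0 h in courses 1, 2 and 3. The control course read 249.9, 237.4, 234.0, 222.0, 194.5 and 220.6 over the 6 times. The 96 h arrays of the shOTX2 courses lay below every other array.

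VLDLR averaged 117 ± 15 at 96 h against 229 ± 18 at 0 h (SD, n = 3 each), a log2 change of -0.89 (SE 0.14, 95% interval -1.18 to -0.59, limma adjusted p = 5.98e-05). At 48 h the change was -0.35 (adjusted p = 0.078, or 0.0137 with the block), and the 48 h and 0 h arrays did not overlap. From 48 h VLDLR fell by a further 0.54 at 96 h (adjusted p = 0.0227), a step lost without course 2 (-0.57, 0.189) or course 3 (-0.52, 0.256). Over all alternative settings the VLDLR step was called in 11 of 14. Whether the course of VLDLR differs from that of RELN was not tested.

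LRP8, the second reelin receptor, gave no single direction, and its 3 probe sets differed. The probe set 228955_at read 274.6, 300.1 and 313.1 at 96 h against 159.8, 212.5 and 247.4 at 0 h in courses 1, 2 and 3. The probe set 205282_at read 142.5, 164.6 and 162.9 at 96 h against 183.0, 186.4 and 212.8 at 0 h. The probe set 208433_s_at read 133.9, 240.0 and 244.1 against 115.7, 223.9 and 217.5. The 96 h arrays were thus all higher than the 0 h arrays on the first, all lower on the second and overlapping on the third.

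At 96 h the log2 changes of LRP8 were 0.50 for 228955_at (95% interval 0.16 to 0.85, limma adjusted p = 0.0219), -0.28 for 205282_at (-0.52 to -0.05, adjusted p = 0.0548) and 0.15 for 208433_s_at (-0.47 to 0.76, adjusted p = 0.75). The rise on 228955_at was lost when arrays were centred on their medians (0.35, adjusted p = 0.0952), when the gene's probe sets were averaged (0.12, 0.602), and without course 1 (0.39, 0.0661) or course 2 (0.52, 0.153). The second, 205282_at, fell by 0.43 at 24 h and 0.45 at 48 h (adjusted p = 0.0408 and 0.00536), and its 96 h change passed with the block (0.0166). Its 24 h call was lost without any 1 course (adjusted p = 0.0846 to 0.408), and its 48 h call without course 2 (-0.48, 0.0869) or course 3 (-0.43, 0.0878). Over all alternative settings these calls stood in 7 of 12 at 24 h and 9 of 12 at 48 h. The difference between the probe sets was not tested, and which LRP8 transcripts each one reads was not analysed here.

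DAB1, the adaptor phosphorylated after reelin binds, was dim on both probe sets of its own. Its tested probe set (228329_at) read 17.8, 29.3 and 20.8 at 48 h against 16.1, 4.6 and 10.1 at 0 h in courses 1, 2 and 3, and 10.6 to 20.7 in the control course. These are signals near the array medians of 16.3 to 20.6. It passed the filter with just 3 arrays above their medians, the 48 h arrays of courses 2 and 3 and the control array at 8 h. The 48 h change was 0.57 (limma adjusted p = 0.0433), a call that was lost in 7 of 13 alternative settings. That call rests on arrays through which the probe set passed the filter, so it is not support for a rise. The 96 h change was 0.30 (adjusted p = 0.276). The other DAB1 probe set (220611_at) lay between 1.3 and 12 in all arrays. The probe set annotated to both OMA1, a mitochondrial protease, and DAB1 (226020_s_at) read 158.3, 184.8 and 217.2 at 96 h against 264.2, 242.2 and 236.1 at 0 h, without overlap, and 193.5 to 266.7 in the control course. Its 96 h change was -0.39 (limma adjusted p = 0.0447), and the difference of that change from the control did not pass (-0.76, adjusted p = 0.123, or 0.0209 with the block). Which of OMA1 and DAB1 this probe set read cannot be told apart.

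**Figure D2:**
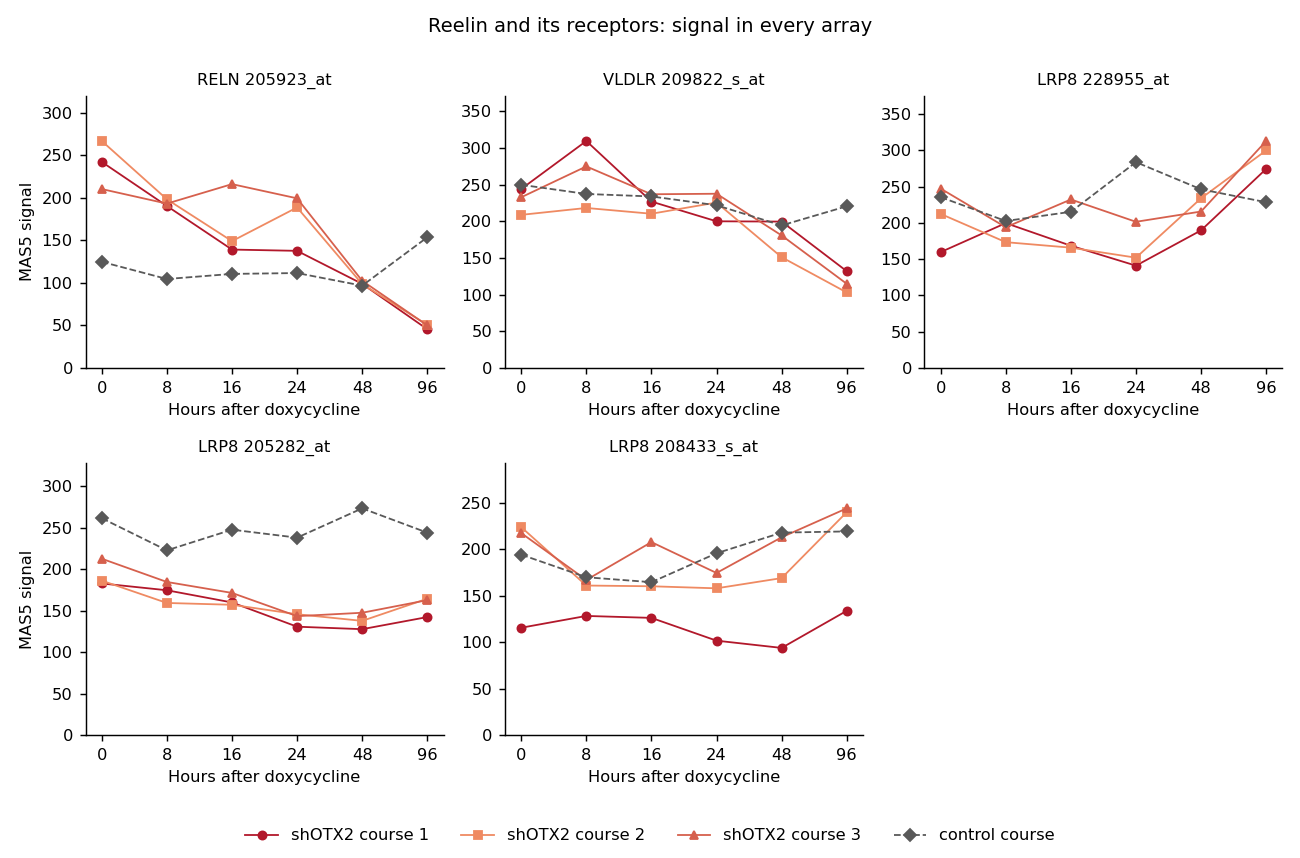
MAS5 signal of RELN, VLDLR and the 3 LRP8 probe sets in each of the 24 arrays; each linear axis starts at 0, hours are equally spaced, and lines join the arrays of a course. RELN ends at 45.5 to 50.5 and VLDLR at 103.0 to 132.0 in the shOTX2 courses, below every control array, while the LRP8 panels part.

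**Figure D3:**
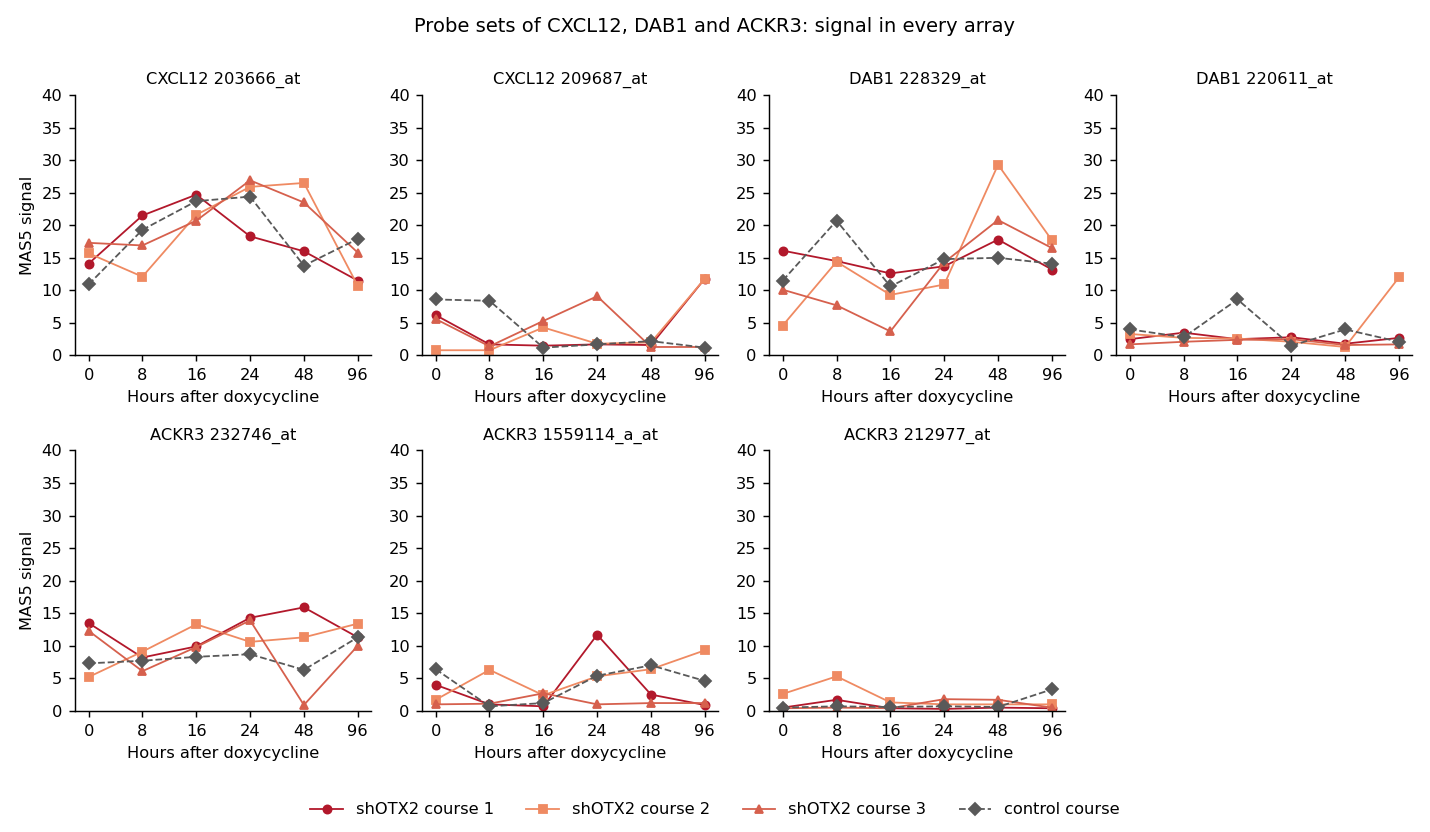
MAS5 signal of the CXCL12, DAB1 and ACKR3 probe sets in each of the 24 arrays on linear axes; lines join the arrays of a course and hours are equally spaced. All values lie at or below 29.3, and the shOTX2 and control courses overlap in every panel.

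The comparison with the control course asks which changes went beyond those of the control cells over the same times. The late arrays (48 and 96 h) were set against the early ones (0 and 8 h) in each arm, and the difference between the arms was tested. CXCR4 rose by 3.36, 2.23 and 2.77 in the shOTX2 courses on 217028_at, 211919_s_at and 209201_x_at, against changes of 0.65, -0.12 and -0.02 in the control. The differences were 2.71, 2.35 and 2.79 (SE 0.43 for the first; limma adjusted p = 0.000285, 1.55e-05 and 0.000127). In course 1 alone, whose actin ratios overlap those of the control, the differences were 2.34, 2.52 and 3.00.

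RELN fell by 1.42 in the shOTX2 courses, against a change of 0.09 in the control, a difference of -1.50 (SE 0.22, limma adjusted p = 0.000149) and of -1.54 in course 1 alone. VLDLR fell by 0.72 in the shOTX2 courses, against a change of -0.22 in the control. Its difference of -0.50 did not pass (adjusted p = 0.0987), but did with the block (0.0166) and after centring arrays on their medians (-0.62, 0.0325). For LRP8 the differences were 0.22, -0.38 and -0.18 on 228955_at, 205282_at and 208433_s_at (adjusted p = 0.606, 0.114 and 0.845), and the second passed with the block (0.0354). For DAB1 and CXCL12 they were 0.43 and -0.01 (adjusted p = 0.358 and 0.981). In course 1 alone the differences were -0.49 for VLDLR, 0.22, -0.46 and -0.35 for the LRP8 probe sets in the same order, 0.06 for DAB1 and -0.22 for CXCL12.

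In all, 3 of the 10 member probe sets were called higher and 1 lower for this difference, and 16.1% of all tested probe sets were called. Among those higher, 209201_x_at passed the filter only through shOTX2 arrays in which it was high. With only the 96 h and 0 h arrays, where 8.95% were called, the differences were 2.98, 2.85 and 3.48 for CXCR4 (limma adjusted p = 0.00445, 0.000185 and 0.000883), -2.25 for RELN (0.00026) and -0.72 for VLDLR (0.13, or 0.0214 with the block). For CXCR4 on 217028_at that call was lost with a pseudocount of 1 (2.68, adjusted p = 0.118).

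**Figure D4:**
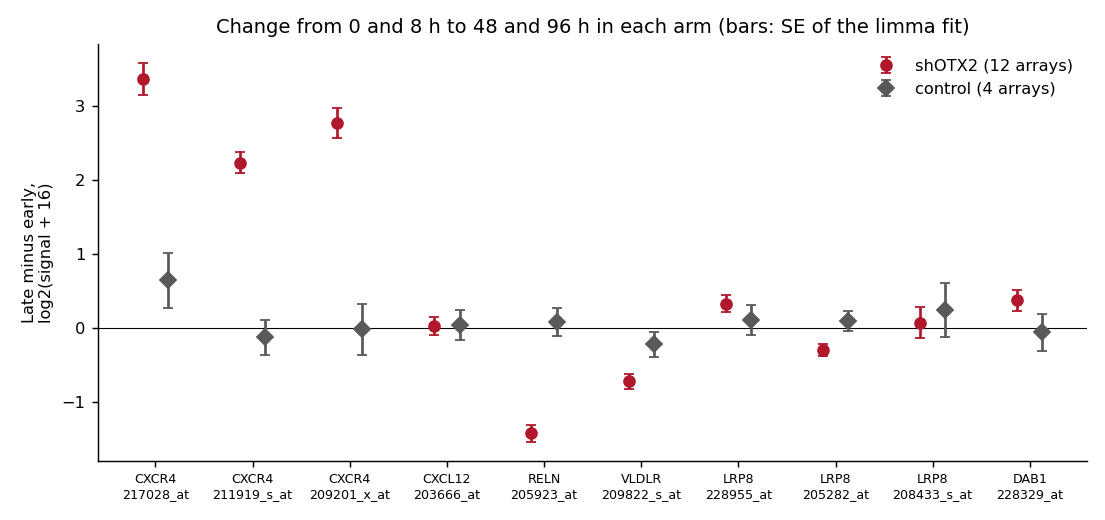
Change of the late arrays (48 and 96 h) against the early ones (0 and 8 h) on the log2(signal + 16) scale for the 10 tested member probe sets, in the shOTX2 arm and, to its right, the control; bars are the SE of the limma fit. CXCR4 stands at 3.36, 2.23 and 2.77 and RELN at -1.42 in the shOTX2 arm, apart from the control.

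RELN already differed between the arms in the early arrays. At 0 and 8 h it was 0.83 higher in the shOTX2 courses than in the control on the log2 scale (SE 0.16, limma adjusted p = 0.00944), a comparison in which 1.95% of probe sets were called. No other member was called there. The RELN call was lost without course 2 (0.78, adjusted p = 0.195) and when only the compared groups entered the fit (0.0582), and course 1 alone differed by 0.83. At 48 and 96 h, when 31.8% of probe sets were called, RELN was 0.68 lower in the shOTX2 courses (adjusted p = 0.00284) and course 1 alone was 0.72 lower. So the control's level lay between the early and the late level of the shOTX2 courses. The early arrays include those taken 8 h after doxycycline. At 0 h alone RELN read 210.2 to 266.7 in the shOTX2 courses and 124.7 in the control, a difference that was not tested by itself. With 1 control course, a difference between the lines and an effect of the construct, before induction or by 8 h, cannot be told apart.

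The other members differed between the arms mainly late. At 48 and 96 h CXCR4 was 3.17 higher in the shOTX2 courses on 217028_at (limma adjusted p = 4.98e-07), and VLDLR was 0.49 lower (adjusted p = 0.0124), a call lost without course 2 (-0.40, 0.0639) or course 3 (-0.49, 0.0807). LRP8 on 205282_at was 0.75 lower (adjusted p = 4.66e-05). On that LRP8 probe set every control array, at 222.9 to 273.5, lay above every shOTX2 array, and the early difference was already -0.37 (adjusted p = 0.101). In course 1 alone the late differences were 3.14 for CXCR4, -0.32 for VLDLR and -0.86 for LRP8 on these probe sets.

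Genes of reelin signalling other than the members were called in both directions at 96 h. Of 38 genes, 34 were tested, with 11 higher and 6 lower and a median log2 change of 0.19 against -1e-04 over all genes, of which 20.6% were higher and 21.9% lower. FYN, a SRC-family kinase that phosphorylates DAB1, averaged 765 ± 62 at 96 h against 99.9 ± 10.8 at 0 h (SD, n = 3 each), and its control signals were 114.6 and 115.3. Its log2 change was 2.75 (SE 0.13, limma adjusted p = 5.67e-11), with the same sign on all 5 of its tested probe sets. CDK5R1 and CDK5R2, the activators of the neuronal kinase CDK5, rose by 1.91 and 2.09 (adjusted p = 6.96e-07 and 1.35e-06). CDK5R1 also rose in the control course, from 101.8 at 0 h to 248.0 at 96 h, while CDK5R2 read 23.5 and 21.7 there. THBS1, which encodes thrombospondin-1, an alternative ligand of the reelin receptors, rose by 1.47 (adjusted p = 6.68e-06) at signals of 39.7 against 3.97.

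The falls were smaller. NDE1, a partner of the lissencephaly protein, fell by 1.15 on the log2 scale (limma adjusted p = 6.83e-06), AKT1 by 0.74 (0.0126) and RAPGEF1, an exchange factor for RAP1, by 0.51 (0.0399). LRPAP1, a chaperone of lipoprotein receptors, fell by 0.69 (adjusted p = 0.000333), and 1 of its 3 tested probe sets had the opposite sign. For the late against early difference between the arms, 6 genes of the list were higher and 2 lower, against 9.62% and 10.9% of all genes. AKT1 and RAPGEF1 were not called there (adjusted p = 0.239 and 0.489).

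Of 45 neuronal migration genes, 37 were tested, and 15 were higher and 6 lower at 96 h, beside 20.6% and 21.9% of all genes. The list's median log2 change was 0.42, against -1e-04 for all genes. CNTN2, a cell adhesion protein of young granule neurons, averaged 2125 at 96 h against 7.87 at 0 h and read 43.6 and 9.1 in the control at those times (log2 change 6.54, limma adjusted p = 1.18e-10). DCX, the microtubule protein doublecortin of migrating neurons, averaged 1374 against 15.8 (5.50, adjusted p = 1.44e-07). ADGRG1, an adhesion receptor, rose by 4.51 and NAV1, a microtubule-binding protein, by 4.03 (adjusted p = 2.38e-09 and 1.66e-09). ASTN2, which traffics the granule cell adhesion protein astrotactin, fell by 1.93 (adjusted p = 2.66e-05), the tubulin TUBB2B by 1.16 (1.17e-05), NDE1 by 1.15 and DIXDC1 by 0.84 (0.000261). For the difference between the arms 11 were higher and 5 lower, beside 9.62% and 10.9% of all genes. The lists share NDE1, CDK5R1, CDK5R2 and other genes, so their counts are not independent.

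**Figure D5:**
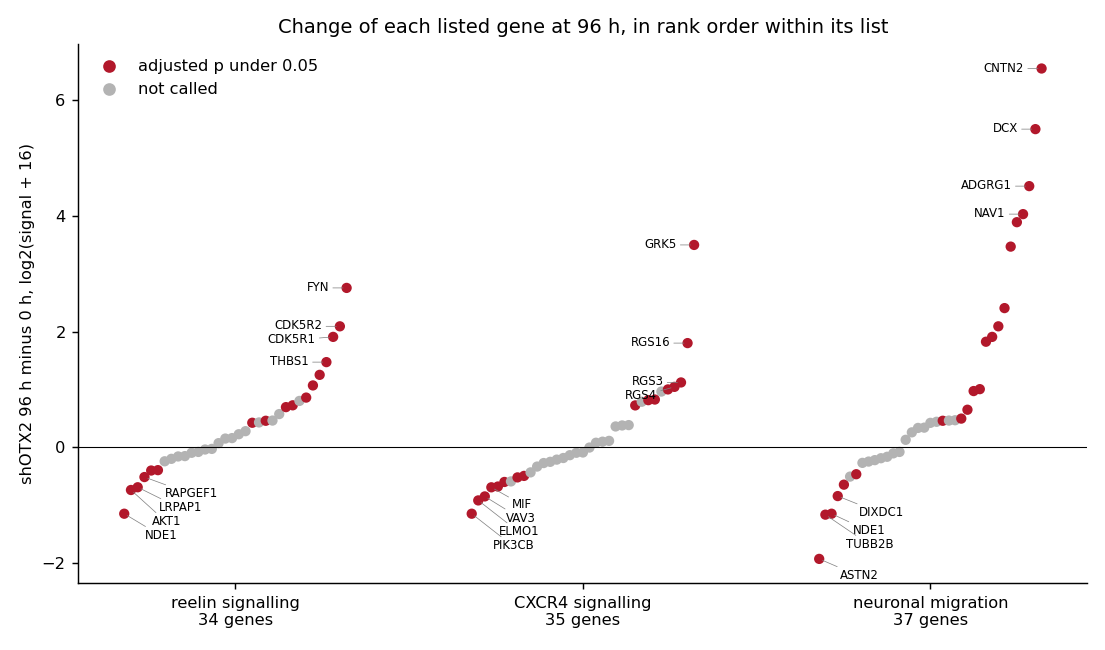
Log2 change at 96 h against 0 h in the shOTX2 courses of each tested gene of 3 lists, in rank order from left to right within a list; red points are called and grey points are not, and the named genes are labelled. CNTN2 stands highest at 6.54, and the CXCR4 signalling list has 8 called genes on each side of 0.

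Markers of cells known for these genes were read beside them, and their counts stand beside 20.6% higher and 21.9% lower over all genes. Of 20 markers of the cerebellar granule neuron lineage, which carries CXCR4 and secretes reelin in development, 13 were tested and 6 were higher and 0 lower at 96 h. NHLH1 rose by 4.75, NEUROD2 by 2.15 and RBFOX3 by 2.11 (limma adjusted p = 2.6e-11, 3.74e-06 and 6.17e-07). In the control course NHLH1 read 53.5 at 0 h and 97.8 at 96 h. ZIC1, ZIC2, EOMES and TBR1 changed by -0.25, -0.10, -0.27 and -0.10, and ATOH1, MEIS2 and ETV1 by 0.17, 0.09 and 0.19. None of these was called (limma adjusted p = 0.178 to 0.777). BARHL1, GABRA6, LMX1A and NHLH2 did not pass the filter. The summed signal of the 17 markers with a probe set was 4219.3 to 4643.4 at 96 h against 1461.4 to 1681.1 at 0 h, and 1475.1 to 1777.7 in the control course. CNTN2, also in the migration list, gave the largest difference to that sum, and without it the sum was 2297.1 to 2530.8 at 96 h against 1460.6 to 1663.5 at 0 h. The list's median log2 change was 0.19. Of 11 markers of Cajal-Retzius cells, the early cortical source of reelin, 7 were tested and 2 were higher, CACNA2D2 by 2.23 and LHX1 by 0.62 (adjusted p = 5.91e-06 and 0.034). LHX1 averaged 14.2 at 96 h against 3.6 at 0 h, below the array medians, and also rose in the control, from 9.8 to 24.1. For the late against early difference between the arms 1 of the 7 was higher and 0 lower, beside 9.62% and 10.9% of all genes. For the 96 h difference 0 were called, beside 1673 of all 13903 genes. The summed signal over 10 Cajal-Retzius markers was 303.6 to 314.6 at 96 h against 152.7 to 218.4 at 0 h, and 149.0 to 220.7 in the control course. CACNA2D2 averaged 134.6 at 96 h against 16.0 at 0 h, and without it the sum was 155.1 to 183.0 against 141.3 to 199.0, with overlap.

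Of 14 immune and endothelial markers, cell types in which CXCR4 is abundant, 4 were tested and 0 were called at 96 h by limma. The summed signal over 12 markers was 103.1 to 117.0 at 96 h against 77.5 to 116.1 at 0 h, and 79.4 to 123.5 in the control course. The leukocyte marker PTPRC read 0.5 to 16.7 and the monocyte marker CD14 0.6 to 2.4 over all 24 arrays. Of 13 mesenchymal and stromal markers, cells that secrete CXCL12, 10 were tested, and COL1A1, COL3A1, PDGFRB and PDGFRA were among 5 higher and VIM was the 1 lower (3.29, 2.04, 1.51, 1.36 and -1.01). Their summed signal was 2212.4 to 3678.6 at 96 h against 3255.9 to 4157.5 at 0 h, and 3279.8 to 5245.3 in the control course. That sum ran opposite to the list's median log2 change of 0.49. VIM averaged 1845.6 at 96 h against 3663.5 at 0 h, and without it the sum was 685.5 to 1256.6 at 96 h against 148.7 to 202.1 at 0 h, and 258.8 to 474.6 in the control course. The part of these marker lists in the members' changes was not tested. In bulk RNA, more cells with a transcript and more transcript per cell cannot be told apart.

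The genes whose signal followed a member most closely were sought among 13902 genes over the 24 arrays. These arrays share courses and times, so the correlations describe the data and carry no test. CXCR4 (217028_at) was followed most closely by ZNF503 (Pearson r = 0.977), PLPPR1 (0.965), ALK (0.965), KDM5B (0.965) and RNF130 (0.963). ALK, a receptor tyrosine kinase of the developing nervous system, averaged 294.5 at 96 h against 23.2 at 0 h, and read 30.4 and 22.6 in the control. RELN was followed by NSG1 (0.949), BLVRA (0.933), LRATD2 (0.931), LYN (0.928) and ITGAV (0.927). NSG1, a neuronal endosome protein, averaged 60.9 at 96 h against 418.6 at 0 h, and read 236.3 and 202.0 in the control. VLDLR was followed by TPD52 (0.916), KIRREL1 (0.907), TMEM14B (0.906), SLC23A2 (0.906) and STOM (0.905). Between members, r was 0.80 for RELN with VLDLR, -0.74 for CXCR4 with RELN and -0.85 for CXCR4 with VLDLR.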

How the data were processed

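Each of 24 D425 RNA samples has 1 expression array. The authors deposited 1 linear intensity for each probe set, the MAS5 signal. The submitters' processing notes name MAS5 and GCOS, whose versions the sources used here do not give. The trimmed mean of each array was 100.011 to 100.014, so arrays had been scaled to a common target. At most 1.2% of values were equal in any pair of arrays. Precision is limited by how many arrays there are. Whether a shift was shared by most genes is not visible after such scaling.

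Of 54675 probe sets, 41097 had 1 gene symbol in the platform annotation, 1801 had several and 11777 were unnamed here. For 41043 the current symbol came from RefSeq (GRCh38.p14) through the Entrez ID, so that CXCR7 became ACKR3. The 62 control probe sets were left out. Probe sets above the array median in at least 3 arrays were kept (33803), and the brightest kept probe set stood for a gene. Signals were taken as log2(signal + 16). Tests were run in limma 3.58.1 (R 4.3.3) with 12 group means and eBayes with a mean-variance trend on 12 residual degrees of freedom, checked on simulated data; other steps used Python 3.11.15. Control groups hold 1 array each and were assumed to vary like the shOTX2 groups. With no peer course, the control's own spread is unknown.

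The course number pairs arrays across times, as the labels number the time courses. Deviations from group means correlated within courses in all 45 pairs of times (r across probe sets 0.175 to 0.6, with a median of 0.257), and 15 of 18 arrays were most like an array of their own course. The blocked fit has 10 residual degrees of freedom and cannot compare levels between the arms.

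All member probe sets were named. From each list the text names up to 4 rises and 4 falls at 96 h, the largest log2 changes that were called and ran 1 way in each of the 3 courses. The markers of medulloblastoma subgroups are an exception, and only some of their changes are named. For the granule neuron lineage the tested markers that were not called are named as well. For members whose group means span at least 1 on the log2 scale it names the 5 genes most alike over the arrays. The members, lists and tests were chosen with earlier results of these data known. The alternatives were pseudocounts of 1 and 64, no filter and a signal over 50 in at least 3 arrays, centring, quantile normalization, 1 row per gene, the block, no trend, the compared groups alone and leaving out each course.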

Additional observations from a re-analysis of the deposited data

Results flagged for a closer look

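The change over time of 2 members differed between the shOTX2 and the control courses by a test of the difference itself, on the log2(signal + 16) scale. From the early (0 and 8 h) to the late (48 and 96 h) arrays the difference, shOTX2 minus control, was 2.71, 2.35 and 2.79 for CXCR4 on 217028_at, 211919_s_at and 209201_x_at and -1.50 for RELN on 205923_at. For 96 h against 0 h it was 2.98, 2.85 and 3.48 for CXCR4 and -2.25 for RELN. Each of the 3 shOTX2 courses moved in the direction of its group. The limma adjusted p lay under 0.05 for all 8 differences, and the control side rests on 1 course.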

How the results depend on the processing

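The 96 h changes of CXCR4, RELN and VLDLR and the late against early differences of CXCR4 and RELN kept their direction and their call under every alternative run. LRP8 did not. On 228955_at its 96 h change was 0.35 with centred arrays, 0.12 with the gene's probe sets averaged and 0.39 to 0.60 with 1 course left out, and the call was lost by the first 2 and without course 1 (0.39) or course 2 (0.52). On 205282_at it was called with the stricter filter (-0.28), centring (-0.43), quantile normalization (-0.32) and the course as a block (-0.28); on 208433_s_at centring turned it to -0.0049. For the late against early difference VLDLR was called with centring (-0.62), the block (-0.50) and without course 1 (range -0.51 to -0.49 with 1 course left out), LRP8 205282_at with centring (-0.50) and the block (-0.38), and LRP8 228955_at turned to -0.11 when averaged. Course 1 alone gave 2.34 and 2.52 for CXCR4 on 217028_at and 211919_s_at and -0.35 for LRP8 208433_s_at. The cause was not tested. Counts of called probe sets over the whole table depended most on the courses and the block. Leaving out 1 course gave 0 to 191 at 16 h (196 with all courses), 71 to 1273 at 24 h (1195), 4372 to 9964 at 48 h (8966) and 7724 to 12926 at 96 h (12436). It gave 1096 to 5283 for 48 h against 24 h (4042), 104 to 2374 for 96 h against 48 h (2619), 2802 to 7971 for the late against early difference (5454), 1037 to 4657 for the 96 h difference (3025) and 77 to 4837 between the arms early (658). The fewest came without course 2 in each. The block gave 1 at 8 h, 1248 at 16 h, 3660 at 24 h, 7970 for 48 h against 24 h, 6000 for 96 h against 48 h, 9499 for the late against early difference and 6485 for the 96 h difference. Fits of only the compared groups gave 0 at 16 h, 449 at 24 h, 1573 for 96 h against 48 h, 1408 for the 96 h difference and 93 early, and a pseudocount of 64 gave 1 at 8 h. Other directions that turned belonged to changes that were not called. Leaving out 1 course in turn gave ranges that crossed 0. At 8 h these were CXCR4 211919_s_at -0.15 to 0.058, CXCR4 209201_x_at -0.029 to 0.56, CXCL12 -0.096 to 0.15, LRP8 228955_at -0.30 to 0.013 and DAB1 -0.11 to 0.24. At 16 h these were VLDLR -0.045 to 0.017, LRP8 208433_s_at -0.25 to 0.025 and DAB1 -0.29 to 0.065. At 24 h these were VLDLR -0.12 to 0.066. At 48 h these were LRP8 228955_at -0.027 to 0.18. For 48 h against 24 h these were LRP8 205282_at -0.051 to 0.0034 and LRP8 208433_s_at -0.0052 to 0.18. For the late against early difference these were CXCL12 -0.085 to 0.092. For the 96 h difference these were LRP8 208433_s_at -0.037 to 0.0091 and DAB1 -0.040 to 0.38. Between the arms early these were VLDLR -0.063 to 0.11 and LRP8 208433_s_at -0.23 to 0.062. Between the arms late these were CXCL12 -0.0078 to 0.12. Under other settings LRP8 228955_at was -0.058 with centring and -0.20 averaged at 48 h and -0.33 averaged between the arms late, LRP8 208433_s_at was -0.011 with centring for 48 h against 24 h, and CXCL12 was 0.0012 with a pseudocount of 64 for the late against early difference and -0.026 with centring between the arms late. Signals near the array median, as for CXCL12, DAB1 and CXCR4 at 0 h, limit what can be measured.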

Other observations

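Markers of medulloblastoma subgroups were called in both directions, beside 20.6% higher and 21.9% lower over all genes. Of 14 markers of groups 3 and 4, 10 were tested, and 4 were higher and 2 lower at 96 h against 0 h in the shOTX2 courses. RBM24, an RNA-binding protein, was higher by 2.82 and CRX, the photoreceptor homeobox factor, by 1.24 on the log2 scale, while MYC averaged 3064 at 96 h against 5022 at 0 h (log2 change -0.71). IMPG2 averaged 1394 at 96 h against 2476 at 0 h, and EYA1 191.8 against 78.0. CRX also rose in the control course, from 124.0 at 0 h to 274.2 at 96 h, where RBM24 read 6.3 and 25.4. For the 96 h difference between the arms 1 of the 10 was higher and 2 lower, beside 772 and 901 of all 13903 genes. The summed signal of the 14 group 3 and 4 markers was 13170.5 to 13243.2 at 96 h against 13645.5 to 15220.9 at 0 h, and 15735.3 to 18533.0 in the control course. That sum ran opposite to the list's median log2 change of 0.33. Without MYC it was 9953.1 to 10369.2 at 96 h against 9064.0 to 10051.6 at 0 h, with overlap, and 9789.9 to 11550.1 in the control course. Of 13 WNT and SHH markers, 8 were tested and 1 was higher and 2 lower, with TNC, the matrix protein tenascin-C, at 1.43 and PDLIM3 at -2.50. In the control course TNC read 1.0 at 0 h and 14.9 at 96 h, and PDLIM3 read 214.4 and 218.2.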
